A study of Rattus norvegicus with 24 samples.

Results

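Transcript levels of 40 genes of the postsynaptic density and the dendritic spine were followed in rat dorsal striatum, out of 20902 genes measured on the same microarrays. The genes were taken from a list of 41 names. Each was represented by the probe that carries its name and has the highest mean signal. For Lrrtm1, a leucine-rich repeat adhesion protein, no probe carried that name, so it was not analysed here. All 40 other genes passed the filter on dim probes, and 39 of them were well above background on all 24 arrays. The exception was Synpo, which was well above background on 22 arrays.

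The study asked how MDPV (methylenedioxypyrovalerone) alters gene expression in the striatum. MDPV is a stimulant of the synthetic cathinone class and acts on the transporters for dopamine and noradrenaline. All animals were male Long Evans rats aged 80 to 90 days, and each received 1 intraperitoneal injection a day for 5 days. The saline group was given saline each day, the acute group saline on 4 days and MDPV at 1 mg/kg on the last, and the chronic group MDPV at 1 mg/kg on all 5 days. The left dorsal striatum was dissected by hand from brains taken 24 hours after the last injection, so every group shared the injections, the handling and the delay. Each group has 8 arrays, while the series design gives 6 per group. In each group 4 arrays fall into 2 pairs by the letter of their titles, and each pair was averaged, which left 6 units per group. The consensus correlation of arrays that share a letter was -0.366, so they were no more alike than other arrays of their group, and the letter was the reason for averaging. With the 24 arrays as independent samples, 0 members and 0 of all genes passed the test in the 3 comparisons between groups. On the striatal marker level described further on, 16 members passed, 14 with positive slopes and 2 with negative ones (1760 of 20902 genes). On the cortical level 6 passed, 5 with positive slopes and 1 with a negative one (2263 of 20902 genes). Whether a unit is 1 animal is not given in the sources used here, so p-values measure the spread between these samples.

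The postsynaptic density is the protein layer under the membrane of an excitatory synapse. Glutamate receptors are held there by scaffolds (Dlg proteins), which are joined through Dlgap proteins to Shank and Homer, and beyond them to the actin of the spine. Calcium entering through the receptors acts through calmodulin on kinases and on the phosphatase calcineurin, which together set how many receptors stay at the synapse. In the striatum most spines belong to projection neurons, which receive glutamate from cortex and thalamus and dopamine from the midbrain. Spine density and postsynaptic proteins of these neurons are known to respond to psychostimulants.

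A level is given here as the log2 signal of a probe minus the array's 75th percentile, so 0 is the 75th percentile of that array. Differences in level are therefore log2 fold changes. Levels of different probes were not compared. Between 50.7% and 71.3% of 58717 spots per array were well above background, and no spot was saturated. The striatal projection neuron markers (20 measured, among them the dopamine receptors and Ppp1r1b) were all well above background on every array. Their mean level ran from 2.14 to 3.32 on 23 arrays and was 1.48 on the array saline 4. Saline 4 also had the highest mean of 7 hypothalamic markers (0.14, against -4.16 to -2.43 on the others) and of 10 thalamic, septal and pallidal markers (-0.97, against -3.10 to -1.72). The mean of 14 cortical excitatory markers lay between -4.08 and -1.38, lowest on chronic 8, saline 5 and saline 4. Of these markers 10 were well above background on every array, as were 4 of the hypothalamic and 8 of the thalamic, septal and pallidal ones. The cortical marker Slc17a7 was so on 21 arrays and lay at -8.50 on chronic 8, so low cortical levels include dim probes. For the probe that represents each gene, values without saline 4 are given beside the differences from saline and the slopes that it moved most. In bulk tissue, fewer cells of a type and less RNA per cell cannot be told apart.

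The spread over arrays differed between the members. The SD of a gene's level over the 24 arrays was smallest for Nlgn1 (0.15), Dlg2 (0.15), Dlg4 (0.16) and Cacng2 (0.16). Nlgn1 and Dlg2 encode an adhesion protein and a scaffold. Dlg4 encodes the main scaffold of the density, and Cacng2 encodes stargazin, which carries AMPA receptors to the synapse. The SD was largest for Camk2a (0.69), Nrgn (0.60), Mef2c (0.54) and Actn2 (0.51). Camk2a is the alpha subunit of the calcium/calmodulin-dependent kinase of the spine, and Nrgn encodes neurogranin, which binds calmodulin at low calcium. Mef2c encodes a transcription factor that limits excitatory synapse number, and Actn2 encodes an actin crosslinker that binds NMDA receptors. On saline 4, 25 of the 40 members had their lowest level of all 24 arrays and 1 had its highest.

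**Figure D1:**
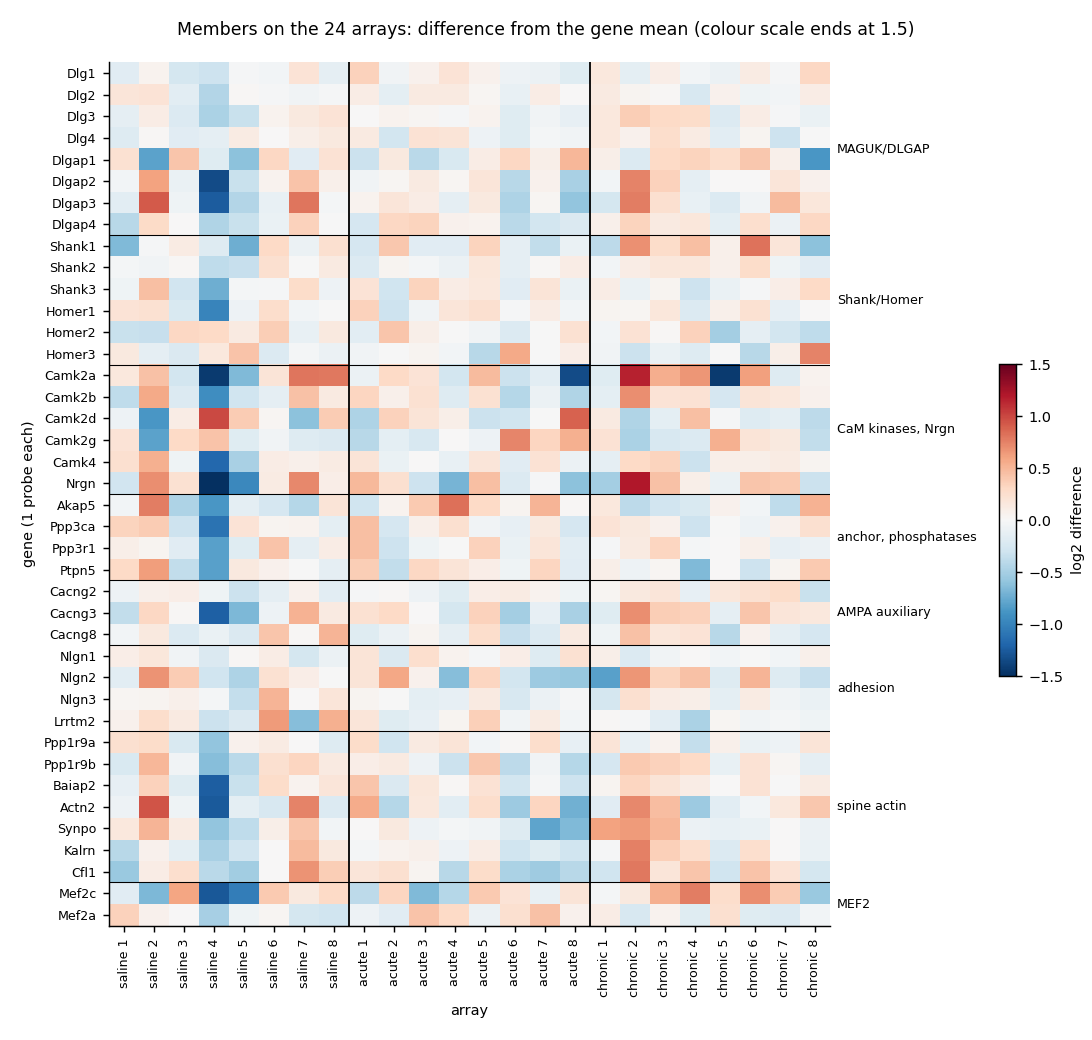
Level of each of the 40 genes (rows, grouped by role) on each of the 24 arrays (columns), as the log2 difference from the gene's mean over arrays; red is above and blue below the mean. On saline 4, 25 genes were at their lowest, while Camk2d, at -1.93 there, was at its highest.

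In the comparisons between treatment groups no member passed the test. In limma's fit over all genes, 0 of 20902 genes (0%) had an adjusted p under 0.05 in acute minus saline, 0 (0%) in chronic minus saline, 0 (0%) in chronic minus acute and 0 (0%) in the test of any difference among the 3 groups. The smallest adjusted p of a member was 1.00, 0.999, 0.960 and 0.997 in these tests. At an unadjusted p under 0.05, the members numbered 2 of 40 in acute minus saline (1.59% of all genes, 333), 1 of 40 in chronic minus saline (2.87%, 599) and 2 of 40 in chronic minus acute (2.48%, 519). In the test over the 3 groups it was 1, Akap5 (1.71% of all genes, 357). The 95% interval of the difference lay within 1 log2 unit, a factor of 2, for 40 members in acute minus saline, 39 in chronic minus saline and 40 in chronic minus acute. The exception was Mef2c, with an interval of -0.10 to 1.06 in chronic minus saline. In no comparison did a member's 6 units of one group lie wholly above or below those of the other. The same count was not taken over all genes, so it shows nothing particular to the members.

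The median difference of the 40 members was 0.07 in acute minus saline, with 33 above 0 (49.1% of all genes were above 0, with a median of -0.00). It was 0.13 in chronic minus saline, with 32 above 0 (56.5% of all genes, median 0.02). It was 0.05 in chronic minus acute, with 26 above 0 (56.5% of all genes, median 0.02). The first pair of comparisons shares the saline samples, so saline 4 entered both. Without saline 4 the medians of these 2 comparisons were -0.01 and 0.01, with 16 and 22 of 40 members above 0 (47.8% and 56.4% of all genes). Within slides 1, 2 and 3, which each carried arrays of all groups, the acute minus saline median was -0.03, 0.26 and -0.10. The chronic minus saline median was 0.11, 0.30 and -0.11, and saline 4 lay on slide 2. With the cortical and striatal marker levels of each unit in the model, the medians in acute minus saline, chronic minus saline and chronic minus acute were -0.01, 0.02 and 0.05. Of the 40 members, 19, 23 and 25 were then above 0, against 47.1%, 56.5% and 56.9% of all genes.

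**Figure D2:**
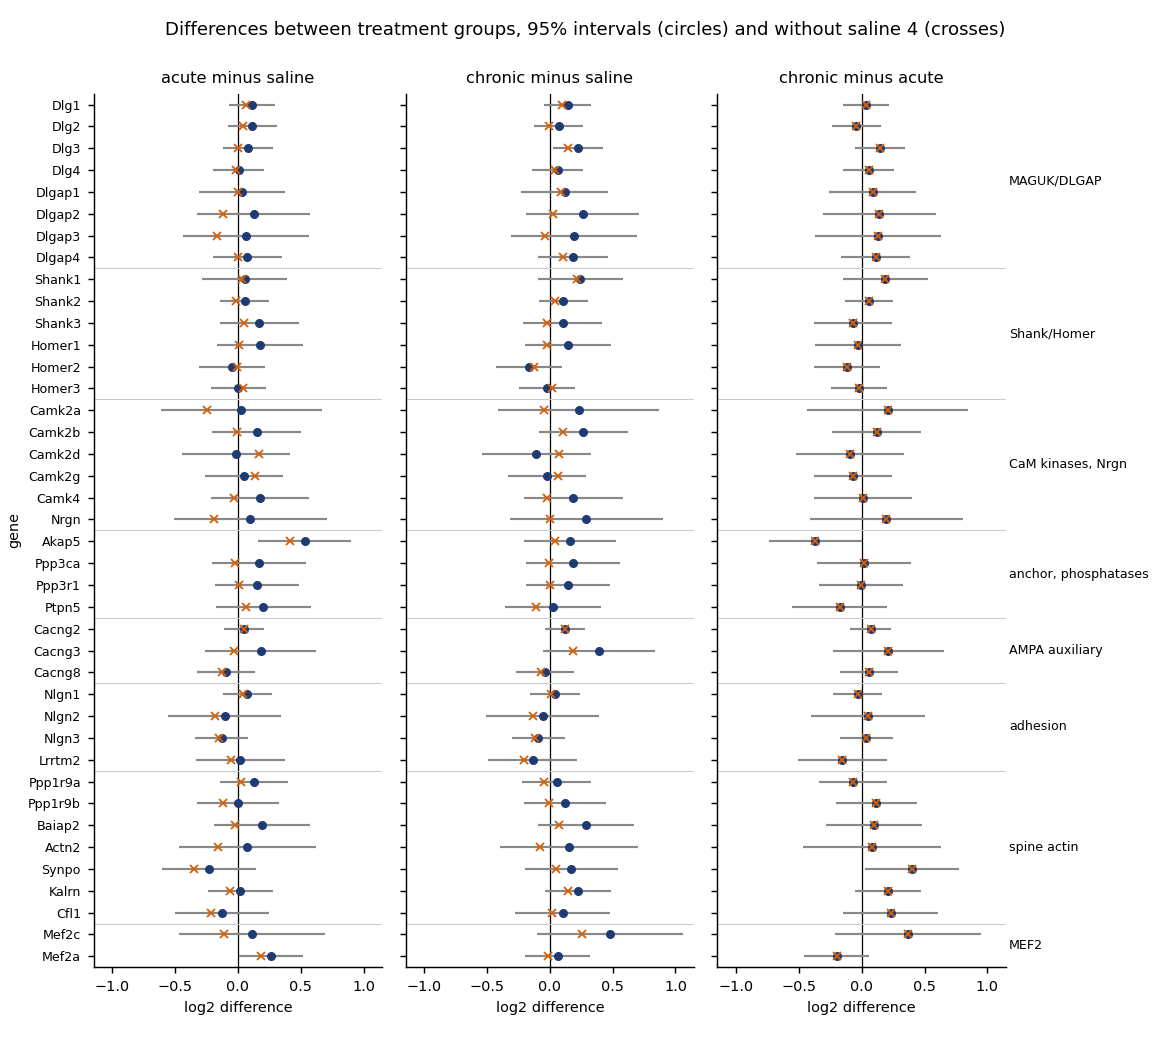
Log2 difference of each of the 40 genes in the 3 comparisons (circles) with its 95% interval from limma over 18 units, and the same difference without saline 4 (crosses). The circle farthest from 0 is that of Akap5 in acute minus saline, at 0.53, and most crosses in the saline comparisons lie to the left of their circles.

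Among the kinase anchor and phosphatases, Akap5 had the largest difference. Akap5 encodes the anchor that holds protein kinase A, protein kinase C and calcineurin beside AMPA receptors. Its lowest, median and highest levels were 0.86, 1.54 and 2.50 on the saline arrays, 1.43, 1.92 and 2.56 on the acute arrays and 1.35, 1.60 and 2.26 on the chronic arrays. The ranges of the groups overlapped, and the highest acute array was little above the highest saline array. The acute minus saline difference was 0.53 ± 0.18 (SE) and the chronic minus acute difference -0.37 ± 0.18, with adjusted p of 1.00 and 0.960. Within slides 1, 2 and 3 the acute minus saline difference of Akap5 was -0.21, 1.03 and 0.34, so its sign was not the same on all slides. Without saline 4 it was 0.41. Ptpn5 encodes the striatum-enriched tyrosine phosphatase that opposes synaptic strengthening. Its levels were 3.41, 4.25 and 4.85 in saline, 3.86, 4.37 and 4.60 in acute and 3.56, 4.24 and 4.61 in chronic. The groups overlapped, and the saline arrays reached both the lowest and the highest level. The Ptpn5 differences were 0.20 ± 0.18, 0.03 ± 0.18 and -0.17 ± 0.18 in acute minus saline, chronic minus saline and chronic minus acute. The Ptpn5 differences from saline were 0.06 and -0.11 without saline 4. Calcineurin's catalytic and regulatory subunits, Ppp3ca and Ppp3r1, had differences between -0.00 and 0.18 in the 3 comparisons. Against saline without saline 4, Ppp3ca had -0.02 and -0.01 and Ppp3r1 0.01 and 0.00.

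Of the 8 MAGUK and DLGAP scaffolds, 8 had a difference above 0 in acute minus saline and 8 in chronic minus saline, with medians of 0.08 and 0.16. These counts rested on saline 4, since without it 3 of 8 were above 0 in acute minus saline and 6 of 8 in chronic minus saline. Of all genes, 49.1% and 56.5% were above 0 with saline 4, and 47.8% and 56.4% without it. Dlg3 encodes the scaffold that carries NMDA receptors early in synapse life. Its lowest, median and highest levels were -1.34, -0.90 and -0.65 in saline, -1.04, -0.87 and -0.80 in acute and -1.06, -0.72 and -0.49 in chronic. The chronic arrays reached higher than the others, with most of the range shared. The Dlg3 chronic minus saline difference was 0.22 ± 0.09 (adjusted p of 0.999), and within the slides it was 0.35, 0.32 and -0.24. Without saline 4, the lowest array for Dlg3, it was 0.15. Dlg1, the scaffold that moves AMPA receptors, had 0.11 ± 0.09 in acute minus saline, and 0.06 without saline 4. Dlg4, the main scaffold, had differences of 0.01 ± 0.10, 0.06 ± 0.10 and 0.05 ± 0.10 in the 3 comparisons, and -0.01 and 0.04 against saline without saline 4.

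Shank and Homer proteins form the deeper scaffold. Shank3 levels were 1.37, 2.05 and 2.55 in saline, 1.80, 2.23 and 2.42 in acute and 1.79, 2.10 and 2.40 in chronic. The saline arrays spanned the range of both other groups. The Shank3 differences were 0.17 ± 0.15, 0.10 ± 0.15 and -0.07 ± 0.15. Without saline 4, the lowest array for Shank3, those from saline were 0.05 and -0.02. Homer1, which ties Shank to metabotropic glutamate receptors, had 0.28, 1.25 and 1.53 in saline, 0.97, 1.32 and 1.62 in acute and 1.07, 1.31 and 1.50 in chronic. Its differences of 0.18 ± 0.16 and 0.15 ± 0.16 from saline were 0.01 and -0.03 without saline 4, the lowest array for Homer1. Homer2 had -0.17 ± 0.13 in chronic minus saline, and -0.13 without saline 4.

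Among the calmodulin-dependent kinases and neurogranin, Camk2a and Nrgn had the widest intervals of all members. Camk2a levels were -2.35, -0.73 and -0.11 in saline, -2.25, -1.03 and -0.44 in acute and -2.35, -0.61 and 0.25 in chronic. Each group had an array below -2. The Camk2a differences were 0.03 ± 0.30, 0.23 ± 0.30 and 0.21 ± 0.30. Without saline 4 those from saline were both below 0, at -0.25 and -0.04. Nrgn levels were 1.99, 3.67 and 4.28 in saline, 2.86, 3.45 and 4.04 in acute and 3.06, 3.80 and 4.76 in chronic. The Nrgn chronic minus saline difference was 0.29 ± 0.29, and -0.00 without saline 4. Camk4, a nuclear kinase that phosphorylates CREB, had 0.18 ± 0.19 and 0.19 ± 0.19 against saline, which were -0.03 and -0.02 without saline 4.

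Among the receptor partners and adhesion molecules, Cacng2 levels were 0.59, 0.85 and 1.02 in saline, 0.74, 0.92 and 1.04 in acute and 0.58, 1.07 and 1.19 in chronic. The Cacng2 differences were 0.05 ± 0.08, 0.12 ± 0.08 and 0.07 ± 0.08, and those from saline stayed at 0.05 and 0.12 without saline 4. Its cortical relative Cacng3 had 0.39 ± 0.21 in chronic minus saline and 0.18 without saline 4, while Cacng8, a related AMPA receptor partner, had -0.10 ± 0.11 in acute minus saline and -0.13 without saline 4. Of 4 adhesion molecules, 2 were above 0 in acute minus saline and 1 in chronic minus saline, and without saline 4 it was 1 in each. Nlgn1, a neuroligin of excitatory synapses that binds presynaptic neurexins, had 0.07 ± 0.09, 0.04 ± 0.09 and -0.03 ± 0.09, and 0.04 and 0.01 against saline without saline 4. Nlgn3, another neuroligin, had -0.13 ± 0.10 and -0.09 ± 0.10 against saline, below 0 on each slide in both, and -0.15 and -0.12 without saline 4. Lrrtm2, which also binds neurexins, had -0.14 ± 0.17 in chronic minus saline, and -0.21 without saline 4.

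Among the spine actin regulators, Synpo had the largest difference. It encodes synaptopodin, a protein of the spine apparatus, and was well above background on the fewest arrays. Its levels were -5.14, -4.45 and -4.05 in saline, -5.35, -4.62 and -4.41 in acute and -4.66, -4.60 and -3.91 in chronic. The ranges of the 3 groups overlapped, and the medians of the acute and chronic arrays were almost equal. The Synpo chronic minus acute difference was 0.40 ± 0.18 (adjusted p of 0.960), and 0.50, -0.05 and 0.38 within the slides. Kalrn, an exchange factor that activates Rac, had 0.22 ± 0.12 against saline and 0.20 ± 0.12 against acute in the chronic group, and 0.14 against saline without saline 4. Ppp1r9b encodes spinophilin, which brings protein phosphatase to spine actin. It had 0.00 ± 0.15, 0.12 ± 0.15 and 0.12 ± 0.15, and Actn2 had 0.08 ± 0.26, 0.16 ± 0.26 and 0.08 ± 0.26. Without saline 4 the differences from saline of both genes were below 0, at -0.12 and -0.00 for Ppp1r9b and -0.16 and -0.08 for Actn2. Of the 7 spine actin regulators, 5 and 7 were above 0 against saline in the acute and chronic groups, and 1 and 4 without saline 4.

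The MEF2 factors restrict synapse number in response to activity. Mef2c levels were -1.14, 0.13 and 0.74 in saline, -0.52, 0.18 and 0.53 in acute and -0.41, 0.46 and 0.91 in chronic. The Mef2c chronic minus saline difference of 0.48 ± 0.28 was 0.25 without saline 4, and 0.30, 1.22 and -0.31 within the slides. Its sign therefore differed between slides. The cortical marker level, which Mef2c followed (below), was lowest on arrays of the saline and chronic groups, and its part in this difference was not tested. Mef2a had 0.26 ± 0.12 in acute minus saline, 0.19 without saline 4, and -0.20 ± 0.12 in chronic minus acute, with adjusted p of 1.00 and 0.960.

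Other genes of the pathway were read from 7 lists with 203 names, of which 196 were measured. None had an adjusted p under 0.05 in limma in any of the 3 comparisons. At an unadjusted p under 0.05 there were 2, 6 and 3 of them in acute minus saline, chronic minus saline and chronic minus acute, against 1.59%, 2.87% and 2.48% of all genes. Their median differences were 0.04, 0.08 and 0.03, with 123, 153 and 117 of 196 above 0 (49.1%, 56.5% and 56.5% of all genes). Against saline without saline 4, the counts above 0 were 94 and 129 of 196 (47.8% and 56.4% of all genes). Of 17 glutamate receptor subunits, 9, 11 and 8 were above 0 in the 3 comparisons. Of 32 other scaffolds and adaptors, 18, 27 and 23 were above 0, and of 61 other spine actin genes, 39, 49 and 40.

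The slides held 8 arrays each, with 3 saline, 2 acute and 3 chronic arrays on slides 1 and 2 and 2, 4 and 2 on slide 3. In limma's test of slide, the 24 arrays entered as independent samples with group in the model, since arrays that share a letter lie on different slides. In this test 5 of 20902 genes (0.0239%) and 0 of 40 members had an adjusted p under 0.05. At an unadjusted p under 0.05, 3 members stood against 4.42% of all genes. Synpo had slide means of -4.22, -4.71 and -4.73 (adjusted p of 0.937). Camk4 had 0.18, -0.21 and 0.08, and Nrgn had 3.87, 3.19 and 3.63, with adjusted p of 0.964 for each. For Camk4 and Nrgn the lowest mean was that of slide 2, which held saline 4.

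Member levels were next set against the marker content of the samples. For each gene limma fitted the slope on the mean level of the striatal projection neuron markers over the 18 units, with treatment group in the model. A slope of 1 means that gene and markers changed by the same log2 amount. The dopamine receptor genes and Ppp1r1b, which define the projection neurons, had their lowest level on saline 4. Gene and marker levels come from the same arrays and share the same scaling. Of 20902 genes, 1146 (5.48%) had an adjusted p under 0.05, 736 with a positive slope (3.52%) and 410 with a negative one (1.96%). Of the 40 members 14 did, 13 with a positive slope and 1 with a negative one, and the median slope of the members was 0.30 against 0.01 for all genes.

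Among the phosphatases, Ppp3ca had a slope of 0.82 ± 0.08 (adjusted p of 1.71e-05), Ptpn5 0.82 ± 0.09 (3.72e-05) and Ppp3r1 0.53 ± 0.14 (0.0411). Among the spine actin genes, Actn2 had the steepest slope of all members, 1.13 ± 0.16 (adjusted p of 0.000329). Baiap2, which bends the membrane of growing spines, had 0.73 ± 0.13 (0.00237). Ppp1r9a, which encodes neurabin, a relative of spinophilin, had 0.54 ± 0.09 (0.000957). Of the scaffolds, Dlgap2 had 0.90 ± 0.14 and Dlgap3 0.87 ± 0.20. Shank3 had 0.67 ± 0.08, Homer1 0.68 ± 0.11 and Dlg2 0.37 ± 0.06. Of the kinases, Camk4 had 0.79 ± 0.12 and Camk2b 0.58 ± 0.15. Camk2d, the delta subunit of the same kinase as Camk2b, had the only negative slope that passed, -0.83 ± 0.15 (adjusted p of 0.00235). None of the AMPA receptor partners, the adhesion molecules or the MEF2 factors passed.

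The array saline 4, with the lowest striatal marker level, decided part of these calls. Without it, 5 members had an adjusted p under 0.05, against 254 genes of 20902 (1.22%). The 5 were Ptpn5 with a slope of 1.02, Actn2 with 1.12, Shank3 with 0.75, Ppp3ca with 0.65 and Ppp1r9a with 0.60. All 14 slopes kept their sign without it, with sizes at a median of 0.48 in place of 0.76. The slopes that shrank most included Baiap2 (0.29), Camk2b (0.29), Ppp3r1 (0.29) and Dlgap2 (0.48). All 14 also had the same sign within each of the 3 slides. The slides hold the arrays on which the 14 were picked, so this agreement is no separate test. For Ptpn5 the within-slide slopes were 0.92, 0.84 and 0.67, for Shank3 0.64, 0.65 and 0.70, and for Camk2d -0.99, -0.60 and -1.31. Leaving out any other unit left 13 to 15 members past the threshold, against 973 to 1250 of 20902 genes. With slide as a block over the 24 arrays 17 members passed (6.62% of all genes), the 14 among them. Over single arrays without saline 4, 13 passed (5.43%), 9 upward and 4 downward. Of these, 10 were among the 14, and the others were Camk2g, Dlgap1 and Mef2c. Hypothalamic and thalamic marker levels were also highest on saline 4, and their part in these slopes was not tested.

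**Figure D3:**
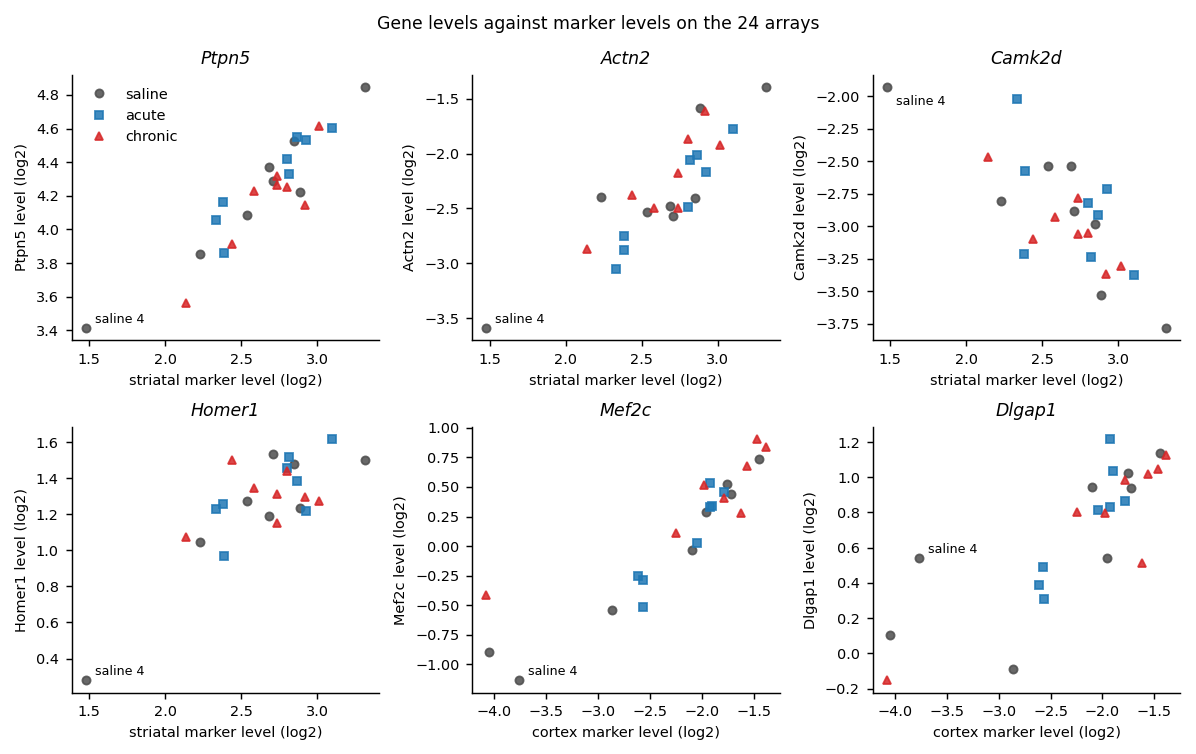
Level of 6 genes (vertical axis, log2) against the mean level of the striatal markers (4 panels) or of the cortical markers (2 panels) on the 24 arrays, with saline, acute and chronic arrays as circles, squares and triangles. Arrays of all 3 groups lie among each other in every panel, and saline 4 lies at the left end of each striatal panel, at 1.48.

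The same fit on the cortical excitatory marker level gave 4 members of 40 with an adjusted p under 0.05, against 653 of 20902 genes (3.12%), all with positive slopes (2.07% of all genes, against 1.05% with negative ones). Mef2c had 0.74 ± 0.07 (adjusted p of 2.23e-05), Nrgn 0.59 ± 0.15 (0.0398), Dlgap1 0.37 ± 0.07 (0.0103) and Shank2 0.19 ± 0.05 (0.0363). Dlgap1 and Shank2 encode scaffolds that bind each other. Without saline 4, Mef2c (0.70) and Dlgap1 (0.51) passed, against 390 genes (1.87%), while Nrgn had 0.32 and Shank2 0.15. Leaving out saline 6, chronic 3, the pair acute 1 and 8 or the pair chronic 2 and 5 also left Mef2c and Dlgap1 alone. Of all genes, 431 to 504 passed in these fits. With slide as a block over the 24 arrays 5 members passed (8.01% of all genes), 4 upward and 1 downward. Over single arrays without saline 4, 8 passed (9.31%), 5 upward and 3 downward, with Ptpn5 among the 3 downward. The Mef2c slope was 0.83, 0.74 and 0.36 within the slides and passed in each of 18 fits that left out 1 unit. On the 3 arrays with the lowest cortical level, chronic 8, saline 5 and saline 4, Mef2c stood at -0.41, -0.90 and -1.14, and its median was 0.13, 0.18 and 0.46 in the saline, acute and chronic groups. The Mef2c slope on the striatal level was 0.19 over all units and -1.12 without saline 4, so its sign turned on that array. Neither value passed the limma test over units (adjusted p of 0.850 and 0.112), while over single arrays without saline 4 its striatal slope did pass. Ptpn5, Shank3 and Ppp1r9a, steep on the striatal level, had cortical slopes of -0.03, 0.01 and 0.02 over all units. These values include saline 4, low on both marker levels, without which the Ptpn5 slope over single arrays was negative and passed. With both marker levels in 1 model, 17 members passed on the striatal level (6.77% of all genes) and 6 on the cortical level (4.16%). In that model without saline 4, Ptpn5 alone passed on the striatal level (0.282%), and Mef2c and Dlgap1 on the cortical level (0.713%).

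**Figure D4:**
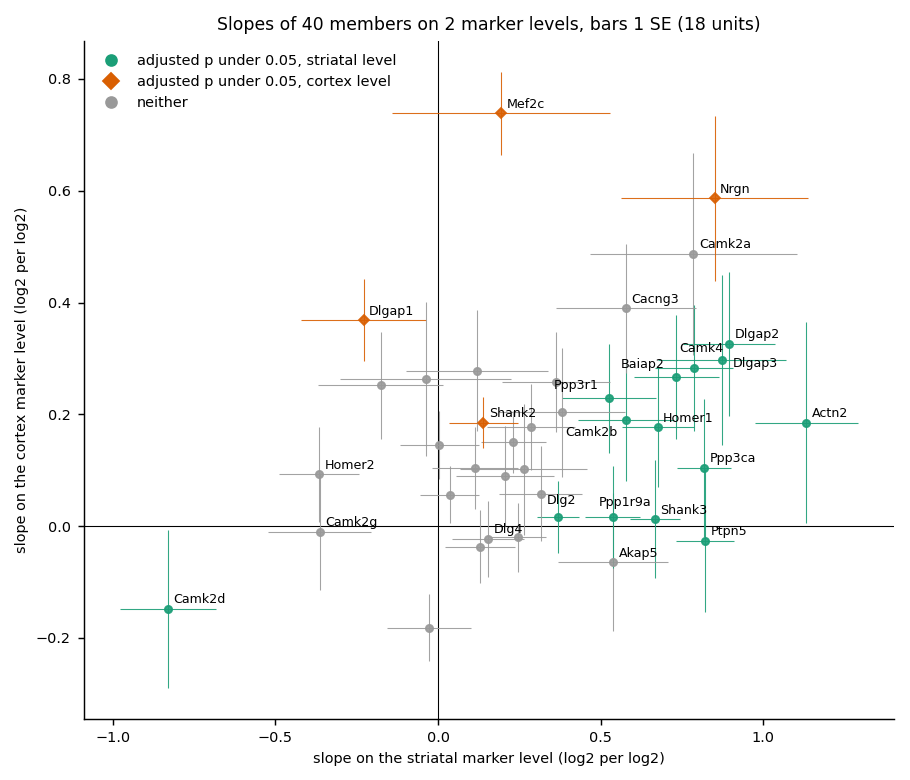
Slope of each of the 40 genes on the striatal marker level (horizontal) and on the cortical marker level (vertical), with bars of 1 SE from limma over 18 units. The 13 genes that passed with a positive striatal slope lie between 0.37 and 1.13 (green), Camk2d lies farthest left at -0.83, and Mef2c lies highest at 0.74.

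The choroid plexus marker level spanned -6.07 to 0.41 over the arrays, and 3 of its 7 measured markers were well above background on all arrays. On this level no member passed, against 14 of 20902 genes (0.067%). The members' median slope was -0.05 against -0.01 for all genes, with 3 of 40 members above 0. Without saline 4 it was -0.02 against -0.01 for all genes, with 11 of 40 members above 0. The share of all genes above 0 is not given here, so these counts show nothing particular to the members. In the fit over all units the lowest adjusted p was 0.297 for Cacng8 (-0.09 ± 0.02). At an unadjusted p under 0.05 there were 6 members, against 9.15% of all genes.

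Of the 196 other pathway genes, 29 had a positive slope past the threshold on the striatal level (3.52% of all genes) and 4 a negative one (1.96%). On the cortical level 7 had a positive one (2.07%). Without saline 4 there were 3 positive and 0 negative on the striatal level, where the genes past the threshold fell from 1146 to 254, and 3 on the cortical level. The striatal calls over all units were spread over the lists. They were 6 positive of 32 scaffolds and adaptors, 3 positive of 32 adhesion molecules, 2 positive of 12 AMPA receptor partners, and 1 positive and 1 negative of 17 glutamate receptor subunits. There were also 8 positive and 1 negative of 37 kinases and phosphatases, 8 positive and 1 negative of 61 spine actin genes, and 1 positive and 1 negative of 5 genes of the MEF2 list.

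Probes behind several of the genes with the clearest slopes are shown by the first 30 of their 60 bases, 5′ to 3′, since these are the sequences whose signal was measured. Positions are on rat build rn4, as the files give them.
Ppp3ca, chr2:234409055-234409114: gtctaatttcttatactctattgtacgttt
Shank3, chr7:127877770-127877829: ctgaccctgacgttgtgatacaccccacag
Actn2, chr17:68763896-68763955: aggtgatccagagctacagtatccggatca
Ppp1r9a, chr4:29933801-29933860: ggcccattgttttctgaccatctaaaactt
Camk2d, chr2:224106009-224106068: gcactgttggatattcaaacggagataaaa
Mef2c, chr2:12327073-12327132: cttctgcattaaatttgtccatcttggtta
Dlgap1, chr9:110020816-110020875: ggggaagatttttatggctttctgaattgg
The files annotate each to the gene by name and to a transcript record, with no statement of exon or UTR.

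Members were also compared with each other over the 24 arrays. The arrays share scaling and include the paired arrays, so the correlations describe these samples and carry no test. Over 780 pairs the median Pearson r was 0.29, with 30.3% of pairs above 0.5 and 6.79% below -0.5. Over all pairs of 20789 genes the median r was 0.02, with 9.33% above 0.5 and 7.68% below -0.5. Without saline 4 the member median was 0.16, with 22.2% above 0.5. Within slides 1, 2 and 3 it was 0.18, 0.46 and 0.16.

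The most alike pair was Ppp1r9a and Ptpn5, with r = 0.94 and Spearman's rho = 0.93 over the 24 arrays. It was 0.90 without the 2 arrays farthest from the median of Ppp1r9a (saline 4 and chronic 4), and 0.94, 0.97 and 0.90 within the slides. Dlgap2 and Dlgap3, sister scaffolds, had r = 0.94 and rho = 0.88. Without saline 4 and chronic 2, the farthest arrays for Dlgap2, r was 0.92. Camk2b and Cacng3 had r = 0.93 and rho = 0.89, and r was 0.89 without their farthest arrays, saline 4 and chronic 2. The most opposed pair was Camk2d and Actn2, with r = -0.86 and rho = -0.79, and r = -0.79 without saline 4 and acute 8. Dlgap3 and Camk2d had r = -0.79 and rho = -0.63, and Camk2b and Camk2g had r = -0.78 and rho = -0.81. Without the farthest arrays these were -0.63 and -0.78.

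Within gene families the members did not all go together. The 4 subunits of the calmodulin-dependent kinase differed in sign. Camk2a and Camk2b had r = 0.81 (rho = 0.81), and Camk2d and Camk2g 0.47 (rho = 0.38), while each of the 4 pairings across these had r between -0.78 and -0.54. The value for Camk2d and Camk2g was uneven, at 0.83, 0.08 and 0.37 within slides 1, 2 and 3. Camk2d had r below -0.5 with 19 of the other members and Camk2g with 15. The second Camk2g probe had r = -0.17 with the chosen one, so the correlations of Camk2g, here and above, hold for the probe used. Dlgap1 had r of -0.18, -0.31 and -0.25 with Dlgap2, Dlgap3 and Dlgap4, whereas those 3 had 0.68 to 0.94 among themselves. On slide 2 alone the 3 values of Dlgap1 were above 0, at 0.26, 0.26 and 0.30. Shank1 and Shank2 had r = 0.74 (rho = 0.77), and Shank3 had -0.24 and 0.08 with them (rho = -0.32 and -0.20). Homer1 had -0.45 with Homer2 and -0.25 with Homer3 (rho = -0.45 and -0.40), and the value with Homer2 was -0.87, -0.38 and 0.19 within the slides. Shank2 and Homer3 each had a further probe that did not follow the chosen one (below). The spinophilin and neurabin genes, Ppp1r9b and Ppp1r9a, had r = 0.09 (rho = -0.07), and -0.22 without saline 4.

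**Figure D5:**
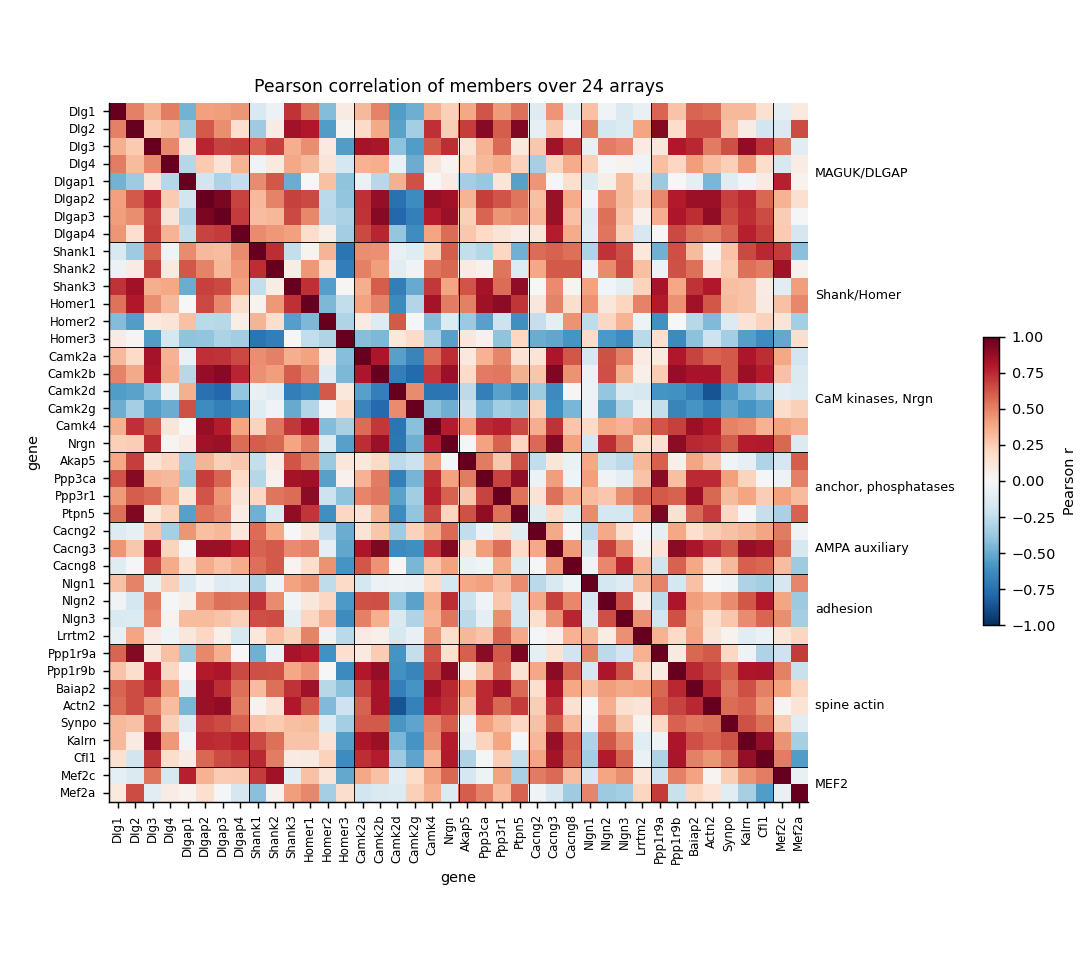
Pearson correlation of each pair of the 40 genes over the 24 arrays, with genes grouped by role and red for positive and blue for negative values. The blue bands belong to Camk2d, Camk2g and Homer3, and the reddest cells off the diagonal include Ppp1r9a with Ptpn5 at 0.94.

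The promoters of the most alike and of the most opposed pair are printed below, to set the sequence beside the covariation. They are RefSeq sequences on GRCr8, 250 bases before to 50 after the start, and 34 of the 40 genes had an entry. Capitals mark GGGCGG, the core that Sp factors bind, and CACGTG, an E-box, on either strand.
Ppp1r9a promoter, chr4:33988577-33988876, plus strand: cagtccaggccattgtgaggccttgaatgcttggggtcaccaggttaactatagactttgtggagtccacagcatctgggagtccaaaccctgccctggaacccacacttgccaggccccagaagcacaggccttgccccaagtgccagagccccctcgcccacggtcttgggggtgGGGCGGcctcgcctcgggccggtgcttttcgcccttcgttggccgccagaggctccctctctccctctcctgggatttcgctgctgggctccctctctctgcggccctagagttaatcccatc
Ptpn5 promoter, chr1:106816085-106816384, minus strand: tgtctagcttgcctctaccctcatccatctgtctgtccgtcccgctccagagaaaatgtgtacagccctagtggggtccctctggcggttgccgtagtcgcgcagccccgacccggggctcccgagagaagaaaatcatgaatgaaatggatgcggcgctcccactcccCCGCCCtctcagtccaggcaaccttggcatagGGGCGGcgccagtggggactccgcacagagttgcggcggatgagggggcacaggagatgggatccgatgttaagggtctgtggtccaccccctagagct
Actn2 promoter, chr17:62834805-62835104, plus strand: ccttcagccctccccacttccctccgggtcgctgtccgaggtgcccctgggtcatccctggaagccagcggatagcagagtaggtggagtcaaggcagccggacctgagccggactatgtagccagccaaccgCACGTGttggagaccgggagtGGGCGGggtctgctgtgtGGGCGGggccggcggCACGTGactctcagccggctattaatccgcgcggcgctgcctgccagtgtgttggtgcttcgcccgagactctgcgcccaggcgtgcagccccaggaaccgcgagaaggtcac
Camk2d promoter, chr2:217698301-217698600, plus strand: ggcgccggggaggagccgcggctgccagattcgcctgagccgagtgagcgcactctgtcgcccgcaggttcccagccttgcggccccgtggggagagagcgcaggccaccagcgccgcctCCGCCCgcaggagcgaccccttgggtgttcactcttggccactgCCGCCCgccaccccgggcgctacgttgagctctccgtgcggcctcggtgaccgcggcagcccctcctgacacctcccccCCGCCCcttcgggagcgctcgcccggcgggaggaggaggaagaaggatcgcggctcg
GGGCGG was found in all 4, with 1, 2, 2 and 3 matches in Ppp1r9a, Ptpn5, Actn2 and Camk2d, so the alike and the opposed pair both hold it. It was in 18 of the 34 member promoters (52.9%) and in 33.1% of all 33469 promoters. CACGTG was in Actn2, with 2 matches, and in Dlg1, that is 5.88% of the members and 6.42% of all. TATAAA was in Baiap2, Cacng2, Dlgap1 and Homer1 (11.8%, against 14.2% of all). TGACGTCA, the full CREB site, was in Lrrtm2 alone among the members (2.94%, against 1.83%), and the MEF2 consensus in Mef2a alone (2.94%, against 1.87%). A match is a run of letters and not a measured binding site.

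For 25 of the 40 genes more than 1 probe passed the filter, with 38 probes beside the chosen ones. Of these, 26 had r above 0.5 with the chosen probe of the gene over the 24 arrays and 3 had r below 0. For the genes that passed on the striatal level, all 16 further probes, from 9 genes, had a slope of the same sign. Over all 38 further probes 37 did, so this is not particular to the genes that passed. Not all of the 16 passed themselves, as with the second Camk2d probe (limma adjusted p of 0.137 over all probes tested). For the 4 genes that passed on the cortical level, Mef2c and Nrgn had no further probe. The second probe of Dlgap1 had a cortical slope of 0.53 (r = 0.63 with the chosen probe), while that of Shank2, well above background on 13 arrays, had -0.08 ± 0.15 (r = 0.15), so the cortical slope of Shank2 rests on 1 probe. Probes of Kalrn (r = -0.18), Camk2g (-0.17), Homer3 (-0.10), Dlg4 (0.00), Mef2a (0.02), Dlg1 (0.13), Shank2 (0.15) and Lrrtm2 (0.16) did not follow the chosen probe, so the values of these genes hold for the probe used.

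Homer1 shows how far probes of a gene can differ. It has 3 probes that passed, on transcript records NM_031707 (the one chosen), XM_008760635 and U92079. The files give these probes no position on rn4.
Homer1, NM_031707: gcaggggtcaatcccatctgtgtataagtt
Homer1, XM_008760635: cacaggtgctactggagtttgcattagtat
Homer1, U92079: aacagaagctcattgacaaactaaagtgac
The U92079 probe had levels of -5.53, -3.62 and -2.41 in saline, -3.71, -3.17 and -2.17 in acute and -3.56, -2.68 and -2.30 in chronic, with saline 4 at -5.53. Its SD over arrays was 0.74, against 0.27 for the chosen probe and 0.33 for the XM_008760635 probe. Its differences were 0.58 ± 0.39, 0.80 ± 0.39 and 0.22 ± 0.39 in acute minus saline, chronic minus saline and chronic minus acute, with adjusted p of 1.00, 0.999 and 0.959 over all probes tested in limma. Those from saline include saline 4, the lowest array for this probe, and were not fitted without it. The XM_008760635 probe had 0.28 ± 0.19, 0.14 ± 0.19 and -0.14 ± 0.19. On the striatal level the slopes of the NM_031707, XM_008760635 and U92079 probes were 0.68, 0.79 and 1.37, and all 3 passed (adjusted p of 0.00146, 0.000559 and 0.0254). Without saline 4 the slope of the chosen probe did not pass, and the other probes were not fitted.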

How the data were processed

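Total RNA of 24 left dorsal striatum samples was labelled with Cy3 and hybridised to Agilent one-colour arrays. The deposited intensity used for every spot was Agilent's processed signal, which per the file headers is background-subtracted and not scaled between arrays. The version of the Feature Extraction software is 10.7 in the submitters' processing notes and 10.1.1.1 in the file headers. Mean and background intensities and the flags, coded as other values of 0 or 1, were used as deposited. The authors' deposited value table holds log2 values between 2.68 and 18.1 that rank as the processed signals do, and its normalization is not given in the sources used here.

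The log2 of this signal was taken and the 75th percentile of an array's probes, controls left out, subtracted. A probe stayed if a share of 0.5 or more of 1 group's arrays had it well above background, as 26259 of 45598 probes did. Each of 20902 genes was read from its brightest probe by mean. Arrays that share a title letter were averaged. The test of slide alone used the 24 arrays as independent samples. limma 3.58.1 in R 4.3.3 was fitted over all genes, with Benjamini-Hochberg adjustment and a threshold of 0.05. The tests were the 3 contrasts, the 3 groups, the slide and slopes on 3 marker levels. The 3 contrasts and a slope on a simulated level were tried on simulated data. The tests of the 3 groups and of the slide were not. The number of arrays limits the precision.

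The members, marker lists and pathway lists were chosen with earlier results of these data known. Genes named were those past a threshold, for each comparison and direction the 3 of smallest p, the 3 pairs with the highest and the lowest r, the 4 with the largest and the smallest SD, and 13 fixed members. Genes outside this rule (Ppp3r1 and Ppp3ca in the comparisons, probes, family pairs and promoters) were named after their values were seen. Alternatives covered background correction, normalization, the probe filter and choice, array pairing, slide, moderation and each unit left out. The probe sequence of 1 gene is not reported here.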

Additional observations from a re-analysis of the deposited data

Results flagged for a closer look

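Within each treatment group, the 6 units of each member were examined for a lowest or highest value whose gap to the next took up more of the group's range than Dixon's 95% critical value. Of 120 sets of 6 units, 12 had such a value. About 1 in 20 would be flagged by chance if the sets were independent and their values of like spread. Here 2 of the 6 units are means of 2 arrays and the sets share the same units, so that share is no measure for the 12. All 12 were the lowest of their group and lay on units of 1 array.

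The unit saline 4 accounted for 5 of them. Dlgap2 stood at -2.67 there against -1.42 to -0.90 in the other saline units. Camk4 stood at -1.17 against -0.05 to 0.19, and Nrgn at 1.99 against 3.43 to 4.28. Baiap2 stood at 1.16 against 2.22 to 2.67, and Synpo at -5.14 against -4.50 to -4.14.

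The unit chronic 4, with the lowest striatal marker level of the chronic group (2.14), accounted for 3. Ptpn5 stood at 3.56 there against 4.19 to 4.32 in the other chronic units, and Ppp3ca at 3.41 against 3.78 to 3.93. Lrrtm2 stood at -2.53 against -2.22 to -2.04. The unit chronic 1 had Camk2b at 2.17 against 2.45 to 2.54 and Cacng3 at -0.73 against -0.37 to -0.19. In the acute group, Dlgap1 stood at 0.31 in acute 3 against 0.76 to 0.87, and Ptpn5 at 3.86 in acute 2 against 4.29 to 4.55.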

How the results depend on the processing

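In every setting with a test, 0 members passed in the 3 treatment comparisons, in the test of the 3 groups, in the slide test and on the choroid plexus level. On the striatal level 12 to 17 members passed in all settings but 2, with 720 to 1760 of all genes. The 720 came with no filter on dim probes, out of 36174 genes. The exceptions were the unit saline 4 left out, with 5 members and 254 genes, and both marker levels in 1 model without saline 4, with 1 member and 59 genes. Leaving out 1 unit gave 5 to 15 members and 254 to 1250 genes. On the cortical level leaving out 1 unit gave 2 to 5 members, against 390 to 693 of all genes. The fewest members passed without saline 4, saline 6, chronic 3, acute 1 and 8 or chronic 2 and 5. The cortical level gave 2 members with quantile normalization (505 of all genes) and 2 with no filter on dim probes (350 of 36174 genes). It gave 2 with both levels in 1 model without saline 4 (149 of all genes), and 8 over the single arrays without saline 4 (1947 of all genes). The median member difference ranged over the left-out units from -0.01 to 0.14 in acute minus saline, from 0.01 to 0.17 in chronic minus saline and from 0.02 to 0.09 in chronic minus acute. Slide 2 alone gave 0.26 and slide 3 alone -0.10 in acute minus saline, and 0.30 and -0.11 in chronic minus saline. The median r between members was 0.46 on slide 2 alone. The covariate fits, the slopes within slides and the runs without saline 4 over single arrays were chosen after seeing the data. The cause of these shifts was not tested. No paired analysis was possible because the replicate numbers only follow the deposition order and pair no samples across groups. Signal over background, a median of 6.45 to 10.4 per array, limits dim probes such as that of Synpo.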
